A study of Mus musculus with 12 samples.

Results

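Messenger RNA of 10 acute-phase and IL-6 response genes was compared between control livers of mice and liver tumors lacking the atypical E2F repressors E2F7 and E2F8 (DKO), or lacking these together with the retinoblastoma protein RB (TKO). The 10 genes were taken by symbol from the 26301 genes of the count table: Saa1, Saa2 and Saa4 (serum amyloid A), Orm1 and Orm2 (orosomucoid), Lcn2 (lipocalin 2), Crp (C-reactive protein), Apcs (serum amyloid P component), Stat3 and Socs3. All 10 were found. All 10 also passed edgeR's filter on low counts, which kept 13882 genes.

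The acute-phase response is the change in plasma proteins made by hepatocytes after infection or tissue injury. Cytokines of the IL-6 family bind the shared receptor chain gp130 (Il6st), Janus kinases then phosphorylate STAT3, and STAT3 activates genes such as the serum amyloids and orosomucoids, often together with C/EBP factors and, downstream of IL-1 and TNF, with NF-κB. SOCS3 is induced by STAT3 and shuts the receptor off again. In mice, Apcs is a strongly induced pentraxin of the liver, whereas Crp responds little, and Saa4 is a constitutive serum amyloid.

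There were 4 libraries in each of 3 groups. The controls were non-tumor livers labelled wild-type. The tumors labelled DKO came from mice with Alb-Cre deletion of E2f7 and E2f8, and those labelled TKO from mice with Alb-Cre deletion of Rb1, E2f7 and E2f8. All mice were adult and were bred into FVB, and the labels name no carcinogen. The tumors arose spontaneously, and the study collected tumors at the end of life. Its controls were littermates, which it describes for the Ki67 counts as Cre-negative and taken at the same time point as the knockouts. Whether this held for the sequenced control livers is not stated. Cre was driven by the albumin promoter, which the study calls hepatocyte-specific, so other cells in a tumor are expected to keep the genes. A tumor was thus compared with a whole non-tumor liver of another mouse, and tumor state and genotype cannot be told apart in the comparisons with controls. A control for Rb1 loss alone, or non-tumor tissue of the knockout mice, was not analysed here.

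Total counts were between 9165812 and 16424973 per library. Rb1 lay between 3.21 and 5.47 CPM (counts scaled to the TMM-adjusted library total) in tumors labelled TKO and between 6.52 and 11.3 CPM in the other libraries. E2f7 was at 0.236 to 1.84 CPM over all libraries, E2f8 at 4.52 to 8.97 CPM in controls and 7.59 to 52.2 CPM in tumors, and whole-gene counts do not show whether the floxed exons were lost. The groups are therefore named by their labels throughout. Hepatocyte mRNAs dominated every library, with albumin at 4.82% to 22.7% of counts. Ddx3y, a Y-linked gene, had 472 to 1126 counts in every library and Xist no more than 6, so all libraries had the profile of males.

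The serum amyloid genes lie next to each other on chromosome 7, and the files' genome build (mm9) places Saa4 at 53983387 to 53987913 (minus strand), Saa1 at 53995871 to 53998350 (minus strand) and Saa2 at 54007203 to 54009684 (plus strand). Orm1 (63005594 to 63009197) and Orm2 (63023483 to 63026912) sit in tandem on the plus strand of chromosome 4. The pentraxin genes Crp (174628187 to 174630097, plus strand) and Apcs (174824093 to 174825185, minus strand) are neighbours on chromosome 1. Lcn2 is on chromosome 2 (32240153 to 32243317, minus strand). Stat3 (100746412 to 100800854) and Socs3 (117827393 to 117831361) are on the minus strand of chromosome 11. Stat5a, on the other strand at 100720665 to 100746483, overlaps the 3′ end of Stat3, so reads in that short overlap could belong to either gene. All 10 are protein-coding genes.

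Upstream sequence was examined for all of these genes but Orm1, whose promoter was not found. RefSeq (GRCm38.p6) gave the promoters of 9 of the 10 genes, and the 250 bases before each start were searched on both strands for TTCNNNGAA (STAT), TTGCNNAA (C/EBP) and the NF-κB consensus. The 4 plasma-protein promoters below are shown because these genes had the lower values in tumors; capitals mark a match to any of these motifs, and each sequence reads 5′ to 3′ towards the gene. In GRCm38.p6 they are chr7:46742981-46743230 (minus strand), chr7:46751583-46751832 (plus strand), chr7:46732604-46732853 (minus strand) and chr4:63362199-63362448 (plus strand).
Saa1: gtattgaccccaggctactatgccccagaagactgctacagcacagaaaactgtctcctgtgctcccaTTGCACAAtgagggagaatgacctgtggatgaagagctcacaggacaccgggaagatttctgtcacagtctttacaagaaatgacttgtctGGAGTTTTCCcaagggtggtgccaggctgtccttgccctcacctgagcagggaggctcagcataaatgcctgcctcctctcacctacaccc
Saa2: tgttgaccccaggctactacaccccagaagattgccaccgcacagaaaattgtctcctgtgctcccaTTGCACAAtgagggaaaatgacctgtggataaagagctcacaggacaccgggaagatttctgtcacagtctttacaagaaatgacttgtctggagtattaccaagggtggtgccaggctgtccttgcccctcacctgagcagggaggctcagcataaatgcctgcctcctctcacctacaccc
Saa4: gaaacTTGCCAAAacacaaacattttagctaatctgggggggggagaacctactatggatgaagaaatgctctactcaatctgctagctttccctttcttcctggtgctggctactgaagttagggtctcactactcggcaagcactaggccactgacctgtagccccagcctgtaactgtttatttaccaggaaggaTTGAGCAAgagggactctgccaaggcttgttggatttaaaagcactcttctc
Orm2: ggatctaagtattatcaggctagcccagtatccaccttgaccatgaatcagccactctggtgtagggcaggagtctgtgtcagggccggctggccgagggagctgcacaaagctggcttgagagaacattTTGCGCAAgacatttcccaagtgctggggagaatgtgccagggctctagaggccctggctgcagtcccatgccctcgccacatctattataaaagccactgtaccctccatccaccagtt

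The Saa1 and Saa2 promoters were 94.8% identical over the aligned bases. Both held the same C/EBP match, at bases -182 to -175 in Saa1 and -183 to -176 in Saa2, whereas the NF-κB match of Saa1 at -91 to -82 was not found in Saa2. Saa4 had a pair of C/EBP matches (-245 to -238 and -52 to -45) and Orm2 a single one at -120 to -113. The Lcn2 promoter carried a C/EBP match (-216 to -209) and an NF-κB match (-43 to -34). STAT matches were present in Apcs (-244 to -236) and in Socs3 (-154 to -146), while Crp and Stat3 had no match to any of these letters in this window. In total, C/EBP letters were found in 5 of the 9 promoters against 9.56% of all 32851 promoters searched, STAT letters in 2 against 7.02%, and NF-κB letters in 2 against 16.8%. These are letter matches in a short window and were not tested for binding.

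Per length of transcript, the mean levels of the plasma-protein genes in control livers were all above those of the signalling genes. Apcs stood highest with 988 ± 609 RPKM (CPM per kilobase of exon; SD, n = 4), followed by Orm1 (574 ± 190 RPKM), Saa4 (302 ± 134 RPKM) and Crp (241 ± 76.1 RPKM). Saa1 (145 ± 127 RPKM) and Orm2 (110 ± 40.4 RPKM) were next and did not keep their order, since Saa1 was above Orm2 in only 2 of 4 controls. The same held for Saa2 (43.4 ± 43.2 RPKM) and Lcn2 (32.1 ± 25.05 RPKM), and Lcn2 was above Stat3 in 3 of 4 controls. Stat3 (10.8 ± 4.56 RPKM) and Socs3 (2.13 ± 0.682 RPKM) were lowest, and Stat3 exceeded Socs3 in all 4 controls. In tumors labelled DKO, Apcs remained highest at 1248 ± 905 RPKM, and in those labelled TKO it was 506 ± 411 RPKM, with Crp (182 ± 8.56 RPKM) and Saa4 (161 ± 36.5 RPKM) next. Orm1, next to Apcs in controls, came after Crp and Saa4 in tumors labelled TKO by its mean of 130 ± 112 RPKM. This order of means did not hold in every tumor. In TKO 3, Orm1 (294 RPKM) was above Apcs (238 RPKM), Saa4 (185 RPKM) and Crp (183 RPKM). In TKO 4, Saa4 (198 RPKM) and Crp (170 RPKM) were above Apcs (158 RPKM).

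Saa4, an apolipoprotein of high-density lipoprotein, was the serum amyloid gene with the clearest separation. It measured 640, 388, 427 and 978 CPM in control livers 1 to 4, 339, 218, 282 and 351 CPM in tumors labelled DKO, and 242, 285, 373 and 399 CPM in tumors labelled TKO. Every tumor labelled DKO lay below the lowest control, and 3 of the 4 labelled TKO did. The fitted log2 difference from controls was -1.03 (SE 0.299) for DKO, with an adjusted p of 0.0755 in edgeR's quasi-likelihood test and 0.0134 in DESeq2. For TKO it was -0.91 (SE 0.299, adjusted p = 0.182 in edgeR and 0.0602 in DESeq2). Permuting the labels in all 70 ways (exact test, two-sided) gave p = 0.0286 for DKO, the smallest it can give, and 0.0571 for TKO. Control 4 had the highest value, and without it the differences were -0.71 and -0.58.

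Saa1, a major inducible serum amyloid, was spread widely among the controls, with 194, 28.0, 35.4 and 93.1 CPM. The tumors labelled DKO had 29.9, 14.8, 27.4 and 47.2 CPM, and those labelled TKO 15.4, 10.4, 33.9 and 36.9 CPM. Only 2 tumors of each genotype were below the lowest control, so the groups overlapped. The mean was 87.6 ± 76.6 CPM in controls, 29.8 ± 13.3 CPM in DKO and 24.2 ± 13.2 CPM in TKO. The log2 differences of -1.55 (SE 0.603, adjusted p = 0.143) for DKO and -1.86 (SE 0.610, adjusted p = 0.181) for TKO did not pass edgeR's threshold, whereas DESeq2 called the latter (adjusted p = 0.0423). Without control 1 they were -0.81 and -1.12.

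Saa2 went with Saa1 at a lower level, as the near-identical neighbour whose reads can be confused with it. Control livers had 64.5, 5.29, 13.4 and 22.7 CPM, tumors labelled DKO 10.5, 6.01, 9.82 and 19.0 CPM, and tumors labelled TKO 6.09, 1.99, 12.7 and 15.3 CPM. The groups overlapped in both comparisons. The log2 difference was -1.23 (SE 0.702, adjusted p = 0.308) for DKO and -1.56 (SE 0.711, adjusted p = 0.302) for TKO, and without control 1 it was -0.29 and -0.63. Of the 566 windows of 40 bases (the read length) in the Saa1 transcript, 78 (13.8%) were identical in Saa2 and 47.3% matched within 2 mismatches, and the transcripts were 92.7% identical. Their counts kept a ratio of 2.41 to 5.30 over the 12 libraries (median 2.73), and how the counting treated reads that fit both genes is not given in the sources used here. Summing both genes gave log2 differences of -1.47 (adjusted p = 0.174) for DKO and -1.78 (adjusted p = 0.202) for TKO. The Saa4 transcript shared none of its windows with Saa1, Saa2 or Saa3.

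**Figure D1:**
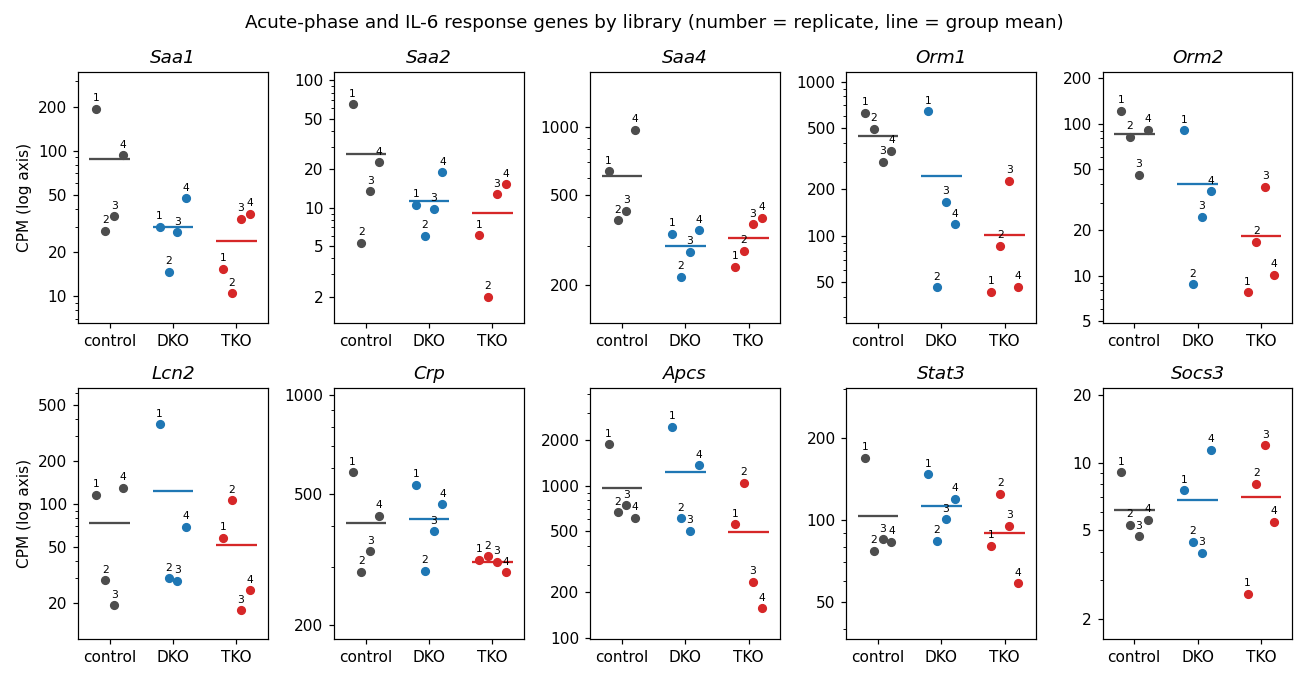
CPM of each of the 10 genes in every library, on a logarithmic axis with a range of its own per gene. Points are libraries numbered by replicate, and horizontal lines are the arithmetic means of 4. All points of Saa4 in DKO, and of Orm1 and Orm2 in TKO, lie below the lowest control, while Lcn2 in DKO 1 (364 CPM) and Apcs in control 1 (1866 CPM) stand far above the rest of their groups.

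The orosomucoid genes, which encode the α1-acid glycoproteins of plasma, had the lowest fitted values in tumors labelled TKO. Orm1 measured 629, 492, 301 and 356 CPM in controls and 43.5, 86.1, 228 and 46.8 CPM in TKO, so that all 4 of these tumors were below every control. In tumors labelled DKO it measured 642, 46.4, 166 and 119 CPM, with DKO 1 above all controls and the other 3 below them. The log2 difference for TKO was -2.14 (SE 0.739, adjusted p = 0.195 in edgeR and 0.0432 in DESeq2; p = 0.0286 in the exact permutation test). For DKO it was -0.87 (SE 0.714, adjusted p = 0.488), which became -2.02 (adjusted p = 0.127) without DKO 1 and -0.53 without DKO 2.

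Orm2 repeated this arrangement, with 122, 82.0, 46.1 and 91.5 CPM in controls, 90.6, 8.78, 24.4 and 35.9 CPM in DKO, and 7.78, 16.6, 38.4 and 10.1 CPM in TKO. All 4 tumors labelled TKO and 3 of those labelled DKO were below the lowest control, DKO 1 being the exception. The log2 difference was -2.23 (SE 0.654, adjusted p = 0.150 in edgeR and 0.0165 in DESeq2; exact permutation p = 0.0286) for TKO and -1.10 (SE 0.630, adjusted p = 0.310) for DKO. The DKO value was -1.90 (adjusted p = 0.132) without DKO 1 and -0.76 without DKO 2. Without TKO 3, the highest of its group for both genes, the TKO difference was -2.92 for Orm1 (adjusted p = 0.0731) and -2.89 for Orm2 (adjusted p = 0.0533). Orm1 and Orm2 share 178 of 736 windows (24.2%) exactly and 44.0% within 2 mismatches, and their transcripts were 91.0% identical, so they are not fully independent measurements. The third family gene, Orm3, was 31.4 ± 10.3 CPM in controls, 14.4 ± 14.9 CPM in DKO and 7.02 ± 4.50 CPM in TKO, and the summed counts of all 3 genes gave a log2 difference of -0.92 (adjusted p = 0.453) for DKO and -2.15 (adjusted p = 0.187) for TKO.

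Lcn2, which binds the iron-carrying siderophores of bacteria and is made by injured hepatocytes and by neutrophils, had no common direction. Controls had 116, 29.1, 19.4 and 131 CPM, tumors labelled DKO 364, 30.1, 28.9 and 68.9 CPM, and tumors labelled TKO 58.0, 106, 17.9 and 24.8 CPM. The spread within each group was 5.96-fold or more, and the groups overlapped. The log2 difference was 0.73 (SE 0.884, adjusted p = 0.648) for DKO and -0.51 (SE 0.884, adjusted p = 0.827) for TKO. The DKO value rested on DKO 1, without which it was -0.81, and it was 1.16 without control 4. The TKO value was -0.08 without control 4 and -1.14 without TKO 2. The summed level of the 12 neutrophil markers, of which 6 passed the filter, was 8.13, 5.46, 28.4 and 7.72 CPM in DKO 1 to 4. A part of neutrophils in the Lcn2 values was not tested.

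Crp, a pentraxin that marks bacteria and dying cells for complement, had overlapping values in the 3 groups. It measured 582, 290, 335 and 428 CPM in controls and 533, 293, 385 and 465 CPM in DKO. Tumors labelled TKO lay close together at 316, 323, 311 and 289 CPM, within the range of the controls except for the last, just below them. The log2 difference was 0.03 (SE 0.238, adjusted p = 0.946) for DKO and -0.40 (SE 0.238, adjusted p = 0.434) for TKO.

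Apcs, the serum amyloid P component found in amyloid deposits, varied more than Crp. Control livers had 1866, 666, 740 and 612 CPM, tumors labelled DKO 2432, 610, 504 and 1361 CPM, and tumors labelled TKO 557, 1045, 234 and 156 CPM. Control 1 and DKO 1 were far above the rest, and 3 of the 4 tumors labelled TKO were below the lowest control. The log2 difference was 0.34 (SE 0.645, adjusted p = 0.786) for DKO and -0.96 (SE 0.650, adjusted p = 0.491) for TKO. Without control 1 it was 0.87 and -0.44, without DKO 1 the DKO value was -0.25, and without TKO 2 the TKO value was -1.62.

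Stat3, the transcription factor that carries the IL-6 signal, was at 168, 77.0, 85.0 and 83.1 CPM in controls, 147, 84.1, 100 and 120 CPM in DKO and 80.4, 124, 95.3 and 58.6 CPM in TKO. The groups overlapped, and the log2 difference was 0.13 (SE 0.291, adjusted p = 0.826) for DKO and -0.21 (SE 0.292, adjusted p = 0.779) for TKO. Without control 1 the TKO value was 0.13. These are transcript levels and hold no information on phosphorylated STAT3.

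Socs3, the feedback inhibitor of gp130 and a direct STAT3 target, was low everywhere, with 43 to 193 counts per library. Controls had 9.05, 5.29, 4.68 and 5.56 CPM, tumors labelled DKO 7.51, 4.43, 3.96 and 11.4 CPM, and tumors labelled TKO 2.59, 8.03, 11.97 and 5.45 CPM. Tumors lay both above and below the controls. The log2 difference was 0.15 (SE 0.445, adjusted p = 0.865) for DKO and 0.18 (SE 0.446, adjusted p = 0.882) for TKO.

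**Figure D2:**
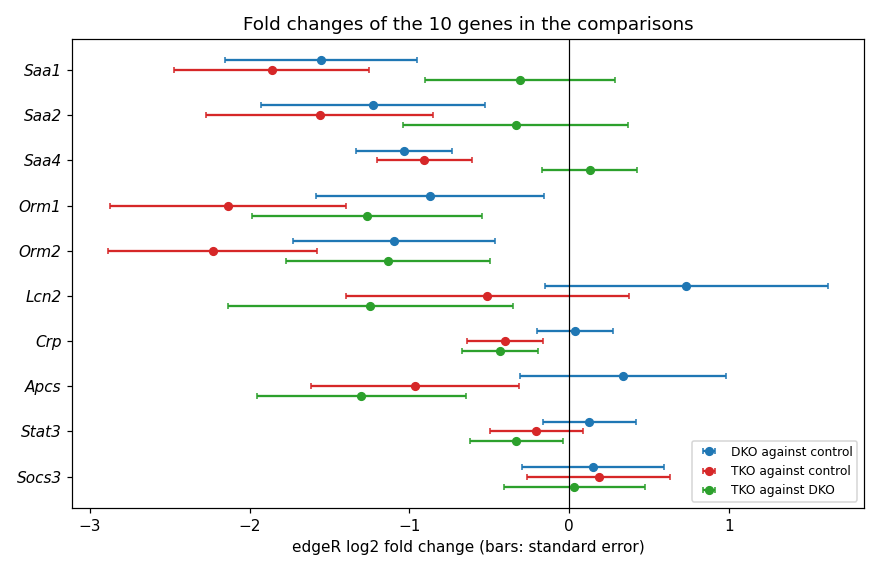
Log2 fold changes of the 10 genes from edgeR (points) with their standard errors (bars) for DKO against control, TKO against control and TKO against DKO. In TKO against control, 9 of 10 points are below 0, from -2.23 for Orm2 to -0.21 for Stat3, with Socs3 at 0.18, and no gene passed an adjusted p of 0.05 in edgeR in any comparison.

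Across the 10 genes, edgeR called none in either comparison with controls, where it called 2.42% (DKO) and 0.0864% (TKO) of the 13882 genes tested. At an unadjusted p under 0.05, 2 of the 10 genes (Saa1 and Saa4, both lower) passed in DKO, against 24% of all genes and 11.1% that passed and were lower. In TKO, 5 of the 10 (Saa1, Saa2, Saa4, Orm1 and Orm2, all lower) passed, against 16.3% of all genes and 6.33% that were lower. DESeq2 called 1 of the 10 in DKO and 3 in TKO, all lower, against 10.4% and 3.49% of all its genes tested and 4.75% and 1.49% that were called lower. Libraries did not overlap, with tumors lower, for 1 gene in DKO (7.3% of all genes) and 2 in TKO (3.29%), and in none of the 10 were all tumors higher (8.87% of all genes in DKO and 4.38% in TKO). The median log2 difference of the 10 genes was -0.42 in DKO and -0.94 in TKO, against 0.02 for all tested genes in each. Values below 0 were seen for 5 of 10 genes in DKO and 9 of 10 in TKO, against 48.4% and 47.5% of all genes. With the Saa1 and Saa2 counts summed, and Orm1 and Orm2 summed with Orm3, the median over the remaining 8 rows was 0.08 in DKO and -0.71 in TKO. Both comparisons use the same 4 control livers.

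The tumor genotypes differ by the deletion of Rb1. The study also reports a longer tumor latency in the double knockout and collected tumors at the end of life. Ages of the sequenced mice are not given in the labels, so age at collection and Rb1 loss cannot be told apart. Between the genotypes, none of the 10 genes passed edgeR's test (0% of all genes passed). None passed at an unadjusted p under 0.05 (9% of all genes, and 3.84% that were lower), and DESeq2 called none of them (0.398% of all, and 0.227% lower). The libraries of all 10 genes overlapped between the genotypes, whereas 2.12% of all genes were lower and 2.75% higher in TKO without overlap. The median log2 difference of TKO against DKO was -0.39, with 8 of 10 genes below 0. The lowest values were -1.30 for Apcs (SE 0.655, adjusted p = 0.585), -1.27 for Orm1 (SE 0.721, adjusted p = 0.613) and -1.25 for Lcn2 (SE 0.893, adjusted p = 0.693). Without DKO 1 these values were -0.72, -0.12 and 0.29. Without TKO 2, Apcs was at -1.96 and Lcn2 at -1.87, and without TKO 3, Orm1 was at -2.05. Saa4 (0.13, SE 0.296) and Socs3 (0.03, SE 0.443) were the genes above 0.

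Many of the 10 genes were high or low in the same libraries. Control 1 was the highest control for 8 of the 10 genes, control 4 for the remaining 2 (Saa4 and Lcn2), and control 1 was among the 3 highest of all 12 libraries for all 10. DKO 1 was the highest library for Orm1, Lcn2 and Apcs. The lowest library was TKO 1 or TKO 4 for 3 genes each and TKO 2 for 2. As a mean of log2 CPM over the 10 genes, controls 1 to 4 stood at 7.67, 6.23, 6.23 and 6.99, the tumors labelled DKO at 7.15, 5.39, 5.94 and 6.62, and those labelled TKO at 5.40, 5.82, 6.09 and 5.52. All TKO means were thus below the lowest control mean, and 2 of the 4 DKO means were.

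**Figure D3:**
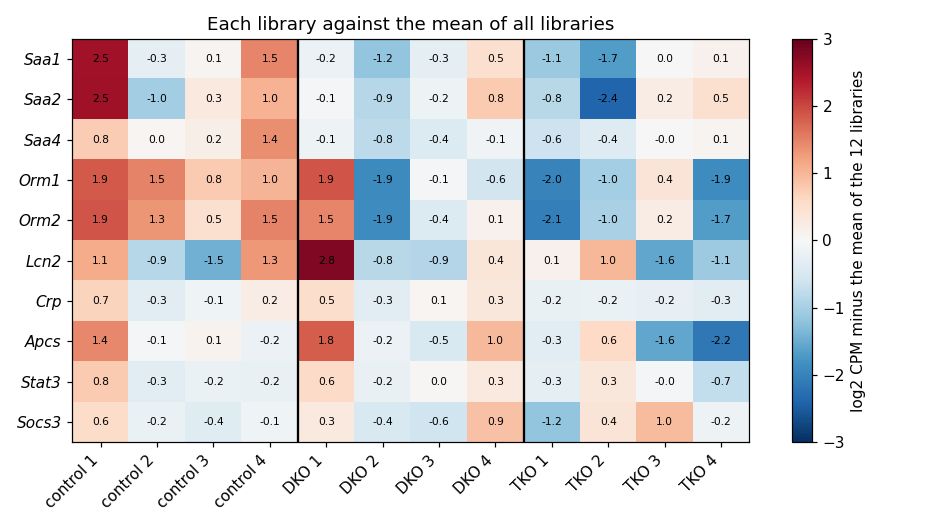
Log2 CPM of each gene in each library after subtracting the gene's mean over the 12 libraries (colour scale and printed value). Control 1 is above the mean for all 10 genes, DKO 1 stands high for Orm1, Orm2, Lcn2 and Apcs, and TKO 1 and TKO 4 are low for the orosomucoids.

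Other cell types moved with some of these values, and in bulk tissue fewer cells of a type and less RNA per cell cannot be told apart. The summed level of 10 hepatocyte markers was 92783 to 147880 CPM in controls, 131263 to 329998 CPM in DKO and 53354 to 246988 CPM in TKO. Control 1, with the highest values of 8 acute-phase genes among controls, had the lowest hepatocyte sum of the controls, and TKO 1, low for the orosomucoids, was at 186370 CPM. Apcs was lowest in TKO 4 and TKO 3, the tumors with the lowest hepatocyte sums of their group (53354 and 99517 CPM), and highest in DKO 1 with 329998 CPM. Other libraries went the other way, since control 1 combined the lowest hepatocyte sum of the controls with the highest Apcs (1866 CPM), and DKO 2, with 232198 CPM of hepatocyte markers, had less Apcs (610 CPM) than DKO 4 (1361 CPM), with 131263 CPM. The sum of the 12 macrophage and Kupffer cell markers found in the table was 305 to 761 CPM in controls, 180 to 638 CPM in DKO and 269 to 820 CPM in TKO. Controls 1 and 4, which led the controls in Saa1, Saa2, Saa4 and Lcn2, also had the highest macrophage sums of the controls (761 and 717 CPM). This was not so in the tumors, where DKO 4 had the lowest macrophage sum (180 CPM) and the highest Saa1, Saa2 and Saa4 of its group, and TKO 3 had the highest sum (820 CPM) and the lowest Lcn2. The neutrophil sum, over 12 markers of which 6 passed the filter, was 4.92 to 12.2 CPM in controls, 5.46 to 28.4 CPM in DKO and 4.18 to 17.3 CPM in TKO. T and B cell markers summed to 6.91 to 24.3 CPM in controls, 3.60 to 20.3 CPM in DKO and 8.43 to 13.7 CPM in TKO. Endothelial markers summed to 112 to 173 CPM in controls, 138 to 199 CPM in DKO and 152 to 286 CPM in TKO. Stellate cell markers lay at 264 to 442, 167 to 573 and 214 to 419 CPM, and cholangiocyte markers at 28.6 to 50.0, 24.8 to 109 and 31.4 to 55.2 CPM, in the same order of groups. No marker in these lists was at 0 throughout a group. The part of cell composition in the differences of the 10 genes was not tested.

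Of the ligands that start the response, Il6, Il11, Osm and Tnf were barely detected. Il6 had 0 to 2 counts per library and 6 counts over all 12, Il11 had 0 to 2, Osm 0 to 2 and Tnf 1 to 6. Only 4 of the 8 genes listed passed the filter, and both edgeR and DESeq2 called 0 in each comparison with controls. Over all genes, edgeR called 2.42% in DKO and 0.0864% in TKO, and DESeq2 called 10.4% and 3.49%. At an unadjusted p under 0.05 in edgeR, only Il1rn, the IL-1 receptor antagonist of that list, passed (24% and 16.3% of all genes). Il1rn was at 10.4 ± 3.21 CPM in controls, 25.9 ± 12.1 CPM in DKO and 24.1 ± 16.3 CPM in TKO. Its log2 differences were 1.30 (adjusted p = 0.131) and 1.20 (adjusted p = 0.251). The IL-6 family ligand Lif was 0.355 ± 0.170 CPM in controls and 0.947 ± 0.197 CPM in DKO (log2 difference 1.34, adjusted p = 0.210). For both Il1rn and Lif, all 4 tumors labelled DKO were above the controls, as for 8.87% of all genes. Lif rests on few reads, with 1 to 7 counts per control library and 10 to 16 per tumor labelled DKO. Il1b, which drives NF-κB, had log2 differences of -0.33 (adjusted p = 0.747) in DKO and -0.31 (adjusted p = 0.8286) in TKO.

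Of 11 receptors and kinases, edgeR and DESeq2 both called 1 in DKO and none in TKO. Over all genes, edgeR called 2.42% in DKO and 0.0864% in TKO, and DESeq2 called 10.4% and 3.49%. In DKO, 7.3% of all genes were lower without overlap. Il1rap, the co-receptor chain for IL-1, fell in DKO from 281 ± 58.0 CPM to 139 ± 37.0 CPM, with every tumor below the controls (log2 difference -1.02, SE 0.243, adjusted p = 0.0498). The call was at the threshold and was lost in 10 of the 12 fits that left out a library (all but those without TKO 3 or TKO 4; adjusted p from 0.0336 to 0.150), and also with DESeq2's size factors in edgeR, total counts, no filter or the sex-gene covariate. That covariate sets Xist, with 1 to 6 counts per library, against Y-linked genes. All libraries had the male profile, so it cannot show an effect of sex. In TKO the Il1rap difference was -0.76 (adjusted p = 0.171). Neither tool called the IL-6 receptor chains themselves. Il6ra was at 52.3 ± 3.63 CPM in controls, 51.6 ± 9.94 CPM in DKO and 57.1 ± 30.5 CPM in TKO. Il6st was at 173 ± 44.2, 152 ± 23.2 and 153 ± 30.0 CPM. Osmr, the oncostatin M receptor, had the highest log2 difference of the list in DKO (1.15, adjusted p = 0.132).

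Among inhibitors (8 of 9 tested), edgeR called 1 in DKO (2.42% of all genes) and 0 in TKO (0.0864%). This was Nfkbia, which encodes the NF-κB inhibitor IκBα and is itself an NF-κB target. In DKO it fell from 54.9 ± 11.5 CPM to 30.2 ± 4.37 CPM, with no overlap, as for 7.3% of all genes. The log2 difference was -0.86 (SE 0.179, adjusted p = 0.0425). This call was lost in 7 of the 12 fits that left out a library (control 2, 3 or 4, DKO 1, 2 or 4, or TKO 1; adjusted p from 0.0302 to 0.134), and with total counts or the sex-gene covariate. In TKO it was 43.6 ± 7.63 CPM and was not called by edgeR or DESeq2. Cish, a STAT5 target of the SOCS family, had log2 differences of -1.79 (adjusted p = 0.0952, or 0.0226 in DESeq2) in DKO and -1.29 (adjusted p = 0.291) in TKO. The phosphatase gene Ptpn11 was highest in DKO at 0.30 (adjusted p = 0.151), and Tnfaip3, an NF-κB inhibitor, in TKO at 0.30 (adjusted p = 0.857).

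edgeR called none of the 15 transcription factors tested, against 2.42% of all genes in DKO and 0.0864% in TKO. In DKO, 3 factors were higher and 2 lower without overlap, against 8.87% and 7.3% of all genes. In TKO, 0 were higher and 0 lower, against 4.38% and 3.29%. At an unadjusted p under 0.05, 6 passed in DKO and 4 in TKO, against 24% and 16.3% of all genes. DESeq2 called 10.4% of all genes in DKO and 3.49% in TKO. DESeq2 called Fos higher in both comparisons (adjusted p = 0.00982 and 0.0395), and Cebpa and Cebpb lower in DKO. Fos, an immediate-early gene, was at 0.912 ± 0.313 CPM in controls, 3.92 ± 1.11 CPM in DKO and 3.52 ± 2.63 CPM in TKO (log2 differences 2.08, adjusted p = 0.0737, and 1.93, adjusted p = 0.161). Onecut1 (hepatocyte nuclear factor 6) had the lowest values, -1.15 (adjusted p = 0.203) and -1.10 (adjusted p = 0.325).

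The remaining 31 induced genes, mostly of plasma and surface proteins, were all tested. Of these, edgeR called none in either comparison (2.42% of all genes in DKO and 0.0864% in TKO). At an unadjusted p under 0.05, 6 passed in DKO and 3 in TKO, against 24% and 16.3% of all genes. DESeq2 called Saa3 and Hamp lower and Ier3 higher in DKO, and Saa3 and Orm3 lower in TKO. It called 10.4% and 3.49% of all genes. The median log2 difference of the 31 was -0.09 in DKO and -0.20 in TKO. Values below 0 were seen for 18 of 31 in DKO and 23 of 31 in TKO, against 48.4% and 47.5% of all genes. Saa3, the serum amyloid made largely by macrophages and adipocytes, had the lowest value in both comparisons (-2.83, adjusted p = 0.0643, in DKO and -2.36, adjusted p = 0.168, in TKO). It ranged from 7.13 to 107 CPM in controls, with the top value in control 4, and without that library the differences were -1.32 and -0.84. The tumors labelled DKO, at 3.53 to 6.66 CPM, were all below the lowest control. In DKO, 3 of the 31 genes, Saa3 and Hamp among them, were lower without overlap (7.3% of all genes) and 1 was higher (8.87%). In TKO, 1 was lower without overlap (3.29% of all genes) and 0 were higher (4.38%). The highest values were Ier3, an immediate-early gene, in DKO (2.08, adjusted p = 0.0626) and Vnn1, a pantetheinase, in TKO (1.73, adjusted p = 0.186). Ier3 was barely detected, at 0.337 ± 0.115 CPM in controls and 1.40 ± 0.805 CPM in DKO. Haptoglobin (Hp) and hepcidin (Hamp) are textbook IL-6 targets, chosen here once their values were known. Hp was at 4194 ± 2983 CPM in controls, 2980 ± 1551 CPM in DKO and 3299 ± 1616 CPM in TKO (adjusted p = 0.613 and 0.801). Hamp was at 1428 ± 467 CPM in controls, 333 ± 337 CPM in DKO and 646 ± 471 CPM in TKO (log2 differences -2.10, adjusted p = 0.130, and -1.14, adjusted p = 0.486).

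Of the plasma proteins known to decrease during the response (12 of 12 tested), edgeR called none (2.42% of all genes in DKO and 0.0864% in TKO). At an unadjusted p under 0.05, 2 passed in DKO and 1 in TKO, against 24% and 16.3% of all genes. DESeq2 called Apoa2 and Ttr lower in DKO, where it called 4.75% of all genes lower. The median log2 difference of the 12 was 0.24 in DKO and 0.14 in TKO. Ahsg, the fetuin A gene, was highest in DKO at 0.98 (adjusted p = 0.255) and Serpina6, the corticosteroid-binding globulin, in TKO at 1.74 (adjusted p = 0.239). The lowest were Apoa2, an apolipoprotein, in DKO at -1.26 (adjusted p = 0.0846) and Fetub in TKO at -0.40 (adjusted p = 0.561).

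**Figure D4:**
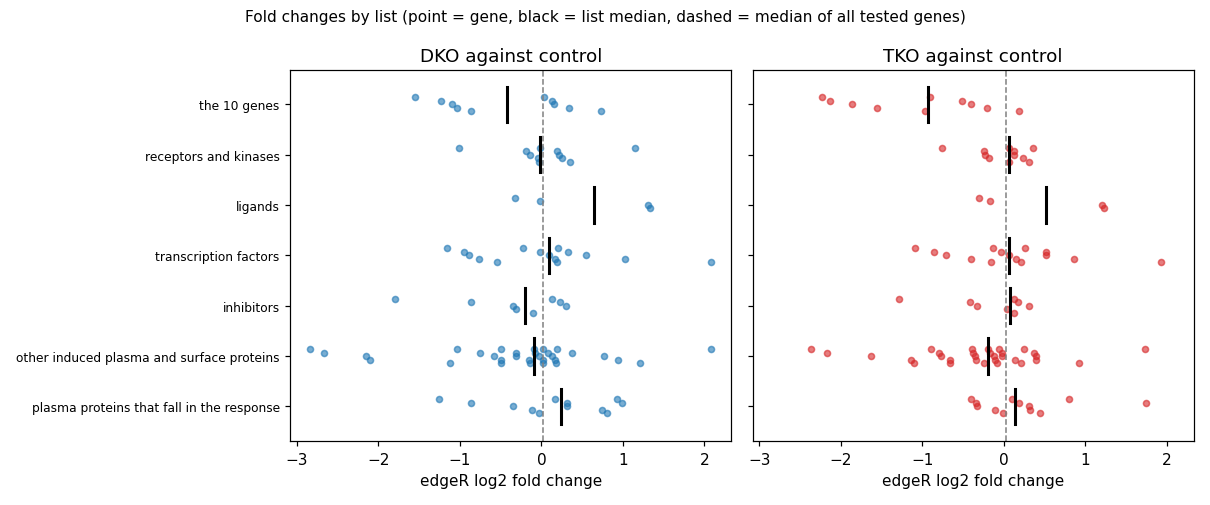
Log2 fold changes from edgeR for the 10 genes and for the tested genes of the 6 pathway lists, in DKO and TKO against control. Each point is a gene, black bars are list medians and the dashed line is the median of all tested genes (0.02 in both). The 10 genes have medians of -0.42 and -0.94, and the other induced proteins of -0.09 and -0.20.

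The genes whose levels followed the 10 genes most closely between livers of one group were ranked by Pearson's r with the mean log2 CPM of the 10, after subtracting group means, over 12 libraries and 13872 other genes. They were Pou2f2 (r = 0.906, Spearman's rho = 0.916), Tspan17 (r = 0.882, rho = 0.825), Eml6 (r = 0.865, rho = 0.909), Foxj3 (r = 0.851, rho = 0.811) and Lbp (r = 0.847, rho = 0.776). Lbp, which encodes the lipopolysaccharide-binding protein of plasma, belongs to the induced list and was at 124 ± 47.1 CPM in controls, 117 ± 88.6 CPM in DKO and 147 ± 90.5 CPM in TKO. Pou2f2 was counted only 2 to 15 times per library, Eml6 3 to 19 times and Tspan17 9 to 35 times. The libraries share their tissue and scaling, and these are the highest of many correlations, so they describe the libraries and were not tested.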

How the data were processed

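Poly(A) RNA of 12 livers and tumors was read as 40-base SOLiD reads. The authors mapped the reads to mm9 with BWA and obtained counts per gene with featureCounts (both also named in the submitters' processing notes; versions, strand setting and handling of multi-mapped reads are not given in the sources used here), and the deposited values are raw counts for 26301 Entrez genes. Of these, 24191 had a symbol (99.4% of counts). Coordinates came from GENCODE vM1 (mm9) and promoters from RefSeq (GRCm38.p6).

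Counts were compared with edgeR 4.0.16 (R 4.3.3; TMM scaling, filterByExpr, all 12 libraries with a mean per group, quasi-likelihood test, Benjamini-Hochberg adjustment at 0.05 over 13882 genes). On simulated counts the test was checked for recovery of known changes. Alternatives used DESeq2 1.42.0, the tool the study names, limma 3.58.1 (voom with quality weights), other scalings and filters, a replicate block, a sex-gene covariate, summed paralogs and leaving out each library. CPM values use TMM-scaled totals, and RPKM divides them by exon length in kilobases. Log2 CPM has a prior count of 2. The exact permutation tests are two-sided, over 70 assignments.

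Groups came from the labels, and the study's methods give 4 livers per condition. No library was a repeat deposit of another (lowest median chi-square 2.28, against 0.455 from sampling noise). Counts of 9165812 to 16424973 per library bound the precision of low genes. The 10 genes, the pathway and marker lists and the tests were chosen with earlier results of these data known. Beyond the 10 genes, the text names the genes called in a pathway list, the highest and lowest of each list against controls, the 5 genes most like the 10, and checks. Where a list held a call, its extremes are given as well, and Il6, Il11, Osm, Tnf, Il6ra, Il6st and Orm3 were added for their roles. Il1rn, Cebpa, Cebpb, Ttr, Hp and Hamp fall outside this rule and were named after their values were known.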

Additional observations from a re-analysis of the deposited data

Results flagged for a closer look

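Of the 30 sets of 4 libraries (10 genes in 3 groups), 3 held a library flagged by Dixon's test. Its gap to the next exceeded the critical value for 4 libraries. The usual rate of about 1 in 20 sets assumes independent, normally distributed values. These were CPM without logs, of genes often high in the same libraries, so that rate is only a rough guide here. Lcn2 was 364 CPM in DKO 1 against 28.9 to 68.9 CPM in the other tumors labelled DKO. Apcs was 1866 CPM in control 1 against 612 to 740 CPM in the other controls. Stat3 was 168 CPM in control 1 against 77.0 to 85.0 CPM in the other controls.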

How the results depend on the processing

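None of the 10 genes was called under other scalings, filters, the 8 libraries alone, voom, the sex-gene covariate, summed paralogs, the replicate block or any left-out library (range 0 to 0). DESeq2 called 1 in DKO and 3 in TKO, and an adjusted p of 0.1 gave 1 in DKO (Saa4). The adjusted p of Orm2 in TKO ran from 0.0533 to 0.339 with single libraries left out and from 0.0165 to 0.183 otherwise. Medians of the 10 genes without single libraries ran from -0.96 to -0.02 in DKO, -1.18 to -0.53 in TKO and -0.65 to -0.23 between genotypes.

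Counts over all genes depended more on the setting. Against 336 genes in DKO, DESeq2 called 1518, total counts 59, the 8 libraries 759, voom 1804, the sex covariate 6 and a threshold of 0.1 1460, and left-out libraries gave 0 to 651. Against 12 in TKO, these were DESeq2 507, no filter 22, voom 97, the sex covariate 5 and a threshold of 0.1 80, with 0 to 231 for left-out libraries. Between genotypes DESeq2 called 56 against 0. Calls of higher genes were 196 of 336 in DKO, and 52 of 59 with total counts alone. The sex covariate rests on 1 to 6 Xist counts in libraries that all had the male profile. Fits with it, here and below, therefore do not show an effect of sex.

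The replicate block called 509 genes in DKO, 1 in TKO, and 0 of the 10 genes. Same-numbered libraries come from different mice, and their deviations had r from -0.174 to 0.370 over 12 pairs (median 0.0224, 5 above 0.1), so the numbers do not pair the samples.

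Some directions reversed. The sex covariate gave Lcn2 -0.27 and Crp -0.0068 in DKO, and Lcn2 0.0078 and Socs3 -0.29 between genotypes. Voom gave Lcn2 0.33 in TKO and Socs3 -0.077 between genotypes. In the exact permutation test, Socs3 differed between genotypes by -0.033 in mean log2 CPM but by 0.188 in mean CPM. Leaving out single libraries gave, in DKO, Crp -0.12 to 0.25, Lcn2 -0.81 to 1.16, Apcs -0.25 to 0.87, Stat3 -0.043 to 0.46 and Socs3 -0.22 to 0.40. In TKO, Stat3 ran from -0.40 to 0.13, Socs3 from -0.21 to 0.45 and Tnfaip3 from -0.033 to 1.58. Il1b ran from -0.59 to 0.18 in DKO and from -0.82 to 0.19 in TKO. Between genotypes, Lcn2 ran from -1.87 to 0.29, Saa1 from -0.59 to 0.0030, Saa2 from -0.72 to 0.033 and Socs3 from -0.35 to 0.40. With Spearman's rho, 2 of the 5 most similar genes were shared (Pou2f2 and Eml6). The cause of these shifts was not tested.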
